A study of Mus musculus with 14 samples.

Results

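The 63 genes described here are the expressed long intergenic noncoding RNA (lincRNA) genes of mouse 4T1 tumours: rows of the deposited count table with the gene type lincRNA and a mean of at least 100 raw counts over all 14 libraries. They were 63 of 5559 lincRNA genes and of 54532 genes in all. The members were chosen by their measured mean count, so their level is a description and not a finding. The study treated tumours with cyclophosphamide (CTX), an alkylating drug that crosslinks DNA, and sequenced bulk tumour RNA. The groups were PBS (4 libraries), CTX at 100 mg/kg (CTX100, 5 libraries) and CTX at 140 mg/kg (CTX140, 5 libraries). All groups carried tumours of the 4T1 line, a mouse mammary carcinoma line, raised from 1000000 cells in 100 µL of PBS placed under the skin of the mammary area. Dosing began 9 days later, at a tumour volume near 100 mm3, by injection into the abdomen of 100 µL of PBS alone or with the drug, given at 6-day intervals over 3 cycles, and the tumours were removed 3 days after the last cycle. The sources used here do not give the strain or age of the animals, and 4T1 is 1 cell line, so the comparisons are within 1 tumour model. Whether each library is a separate animal is not stated, and the p-values then measure only the spread among these libraries, which may be technical. The labels name the cell type as TNBC (triple-negative breast cancer) cell, but host cells were present: 10 carcinoma epithelium markers summed to 1475 to 2301 CPM (counts scaled to library size) in PBS, 1789 to 2173 CPM in CTX100 and 1282 to 1999 CPM in CTX140, while 13 fibroblast markers summed to 843 to 1398 CPM in PBS, 1454 to 2480 CPM in CTX100 and 2501 to 7082 CPM in CTX140.

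Long noncoding RNAs are transcribed and usually spliced like messenger RNAs but are not known to work mainly through a protein. Some act in the nucleus as scaffolds of bodies or as silencers of a chromosome, some act in the cytoplasm by binding microRNAs or RNA-binding proteins, and many are known only as the precursors of the microRNAs or small nucleolar RNAs (snoRNAs) cut from them. Others are annotated and detected with no known role, and their transcription can move with a neighbouring gene. In bulk tumour RNA, fewer cells of a type and less of a transcript per cell cannot be told apart.

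The members were a small and uneven set. Together they took 0.248 ± 0.0409% of the counts in PBS, 0.213 ± 0.0128% in CTX100 and 0.221 ± 0.0272% in CTX140 (SD, n = 4, 5 and 5), in libraries of 14423875 to 19282726 counts. The 3 most counted, Gm26917, Neat1 and AW112010, held 33.9% of all counts on the members, and the 7 most counted held 52.1%. None had a count of 0 in any library, and the lowest count of a member in a library was 6. All 63 passed the filter on low counts, which kept 366 of the 5559 lincRNA genes, and 2965 lincRNA genes had no count anywhere. Just inside the minimum lay Gm26617 and Gm11110 with a mean of 104.3 counts each and C430042M11Rik with 103.4, and just outside it lay Gm7967 with 98.6, Gm7160 with 97.3 and Gm1976 with 96.1. The number of lincRNA genes with at least 1 count was 1026 ± 46.4 in PBS, 1147 ± 68.3 in CTX100 and 1273 ± 85.4 in CTX140, which was not tested.

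Sequences are shown for the members whose RNA carries a known binding or coding element that bears on the results. The most abundant of these is 2900097C17Rik (ENSMUSG00000102869), which RefSeq lists as Norad, an RNA known in human and mouse cells for binding Pumilio proteins at repeated short elements and for its link to genome stability. Its transcript of 4915 bases, a single exon block on the minus strand at chr2:156388065-156392979, held 11 matches to the Pumilio element (TGTA, any 1 base, ATA), searched on the transcript strand. Gm7292 (ENSMUSG00000104222), on the plus strand at chr6:117716342-117718868, held 9 in 2527 bases. These were the only lincRNA genes with at least 9 matches among 6051 with a transcript in GENCODE release M21, where the mean was 0.123 matches per kb and 13.9% had any. In 8 cases the 30-base window around an element of 2900097C17Rik also occurred in Gm7292. The first pair of windows below is shared by both RNAs, and the third is from 2900097C17Rik alone; they are read from the GENCODE M21 transcripts (mm10, minus strand, written as DNA), and the capitals mark the element.
2900097C17Rik element 1, chr2:156392311-156392340: tagaagtcctgTGTATATAatatgaaaaag
2900097C17Rik element 4, chr2:156391439-156391468: actgactgctgTGTATATAgtggacaacag
2900097C17Rik element 11, chr2:156389436-156389465: cagtgagaaagTGTACATAacggattggta

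1700020I14Rik (ENSMUSG00000085438), listed in RefSeq as Oip5os1 and Cyrano, is known in vertebrates for an unusually long match to miR-7 that leads to the decay of that microRNA. Its transcript held 2 matches to the miR-7 seed, and beside one of them, at chr2:119602134-119602161 on the plus strand of mm10, a further 13 bases paired with the 3′ part of miR-7a-5p without a gap. Capitals mark the seed (bases 2 to 8) in the microRNA, from RefSeq, and the bases that pair with it in the transcript, from GENCODE M21.
miR-7a-5p: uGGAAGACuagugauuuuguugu
1700020I14Rik site: agaacaacaaaatcaccaatGTCTTCCa

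Of the 63 members, 4 contained an annotated microRNA hairpin: AL805899.1, Mir17hg, H19 and Snhg20. AL805899.1 (ENSMUSG00000117123, minus strand, chr4:88909855-88938521) contained the hairpin of miR-31, and Mir17hg (plus strand, chr14:115042879-115046727) contained 6 hairpins of the miR-17-92 cluster, known for its roles in the cell cycle and in lymphocyte and tumour growth. The mature sequences are shown because the first host was called in the test described next and the second was near its threshold; capitals mark the seeds. In the cluster, miR-17-5p and miR-20a-5p share 1 seed and miR-19a-3p and miR-19b-3p share another.
miR-31-5p: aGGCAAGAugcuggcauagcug
miR-31-3p: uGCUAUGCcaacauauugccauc
miR-17-5p: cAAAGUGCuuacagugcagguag
miR-20a-5p: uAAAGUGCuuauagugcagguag
miR-19a-3p: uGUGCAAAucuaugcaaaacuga
miR-19b-3p: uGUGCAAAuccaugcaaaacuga

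Levels per length were compared on the deposited FPKM values. The highest mean FPKM over the 14 libraries was that of AW112010 (172), a transcript known from interferon-stimulated and activated immune cells, followed by Gm10076 (146), Gm26917 (104) and Epb41l4aos (85.9), a host of a snoRNA. Next came Snhg6 (35.5), also a snoRNA host, AU020206 (30.5), 3300005D01Rik (30.1), Gm13056 (26.4), 2900097C17Rik (24.8) and Bvht (22.6), named Braveheart for its role in heart development. The remaining 53 lay lower, down to 0.433 FPKM for Gm37494, and the median was 6.51 FPKM. Neat1, the second in counts, was lower on this scale because its listed length is 20771 bases. Libraries of 1 group varied more for the members than for coding genes: the median over genes of the within-group SD of log2 CPM (with an offset of 0.5) was 0.33 for the 63 members and 0.23 for 10376 protein-coding genes above the same count minimum. Those coding genes had a median mean count of 635, against 255 for the members, and the part of depth in this difference was not tested. The least variable member was Gm11110 (SD 0.13) and the most variable was Gm35279 (SD 1.59).

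**Figure D1:**
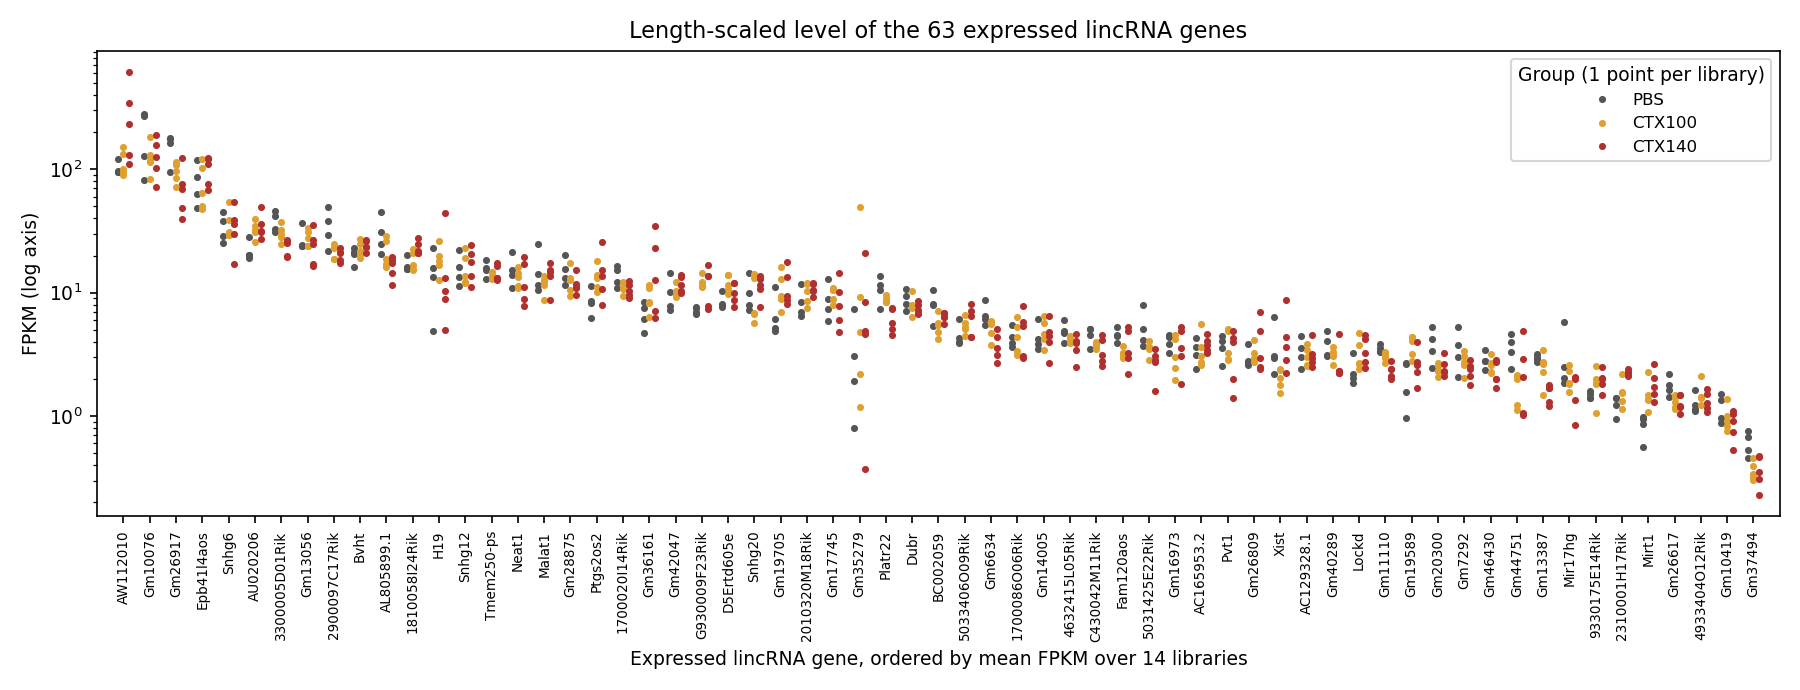
FPKM (log axis) of the 63 expressed lincRNA genes in each of the 14 libraries, with genes ordered by their mean; each point is 1 library and the groups stand side by side as PBS, CTX100 and CTX140. AW112010, Gm10076, Gm26917 and Epb41l4aos lie at the top, and Gm35279 spreads widest between libraries.

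Some of these levels are shared with other genes, which limits what a count can say. For 13 members over 10% of the 50-base words of their longest transcript also occurred in another gene's transcripts. The share was 77.5% for Gm7292, all of it with 2900097C17Rik, of whose own words 39.5% were shared. It was 72.9% for Gm42047, 69.9% for Gm10076, all of it with the ribosomal protein gene Rpl41, 68.9% for Gm36161 over 71 genes and 48.7% for Gm26617, mostly with the zinc finger gene Zxdb. Exons of 10 members overlapped those of another gene with a mean of at least 5 counts, 9 of them on the opposite strand, and since the sources used here do not give the strand setting of the counting, those reads cannot be told apart. Mirt1 overlaps 4833407H14Rik and Gm11110 overlaps Tnfsf9 in this way.

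At 140 mg/kg, 18 of the 63 members differed from PBS at an adjusted p under 0.05 in edgeR's quasi-likelihood test over all genes, 7 higher and 11 lower, where 21.3% of all genes tested were called, 11.1% higher and 10.1% lower. The members that were higher are AW112010, Gm36161, Mirt1, 2310001H17Rik, G930009F23Rik, AU020206 and 1810058I24Rik. Those that were lower are Gm26917, Gm13387, 5031425E22Rik, AL805899.1, Platr22, Gm6634, 2900097C17Rik, Gm37494, 3300005D01Rik, Gm20300 and Gm11110. That is 28.6% of the members, beside 22.3% of protein-coding genes above the same count minimum and 12.2% of the 303 other lincRNA genes tested. Those 303 genes lie below the count minimum, and the part of depth in their lower share was not tested. By direction, 11.1% of the members were higher and 17.5% lower, beside 8.7% and 13.6% of those coding genes. At an unadjusted p under 0.05 there were 26 members (41.3%), beside 35.7% of all genes tested. The median log2 fold change of the members was -0.09, beside 0.02 over all genes tested. Without PBS replicate 3 the number of called members was 10 (15.9%), and without PBS replicate 4 it was 11 (17.5%). Calls over all genes also fell, from 3268 to 1975 and 1992.

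**Figure D2:**
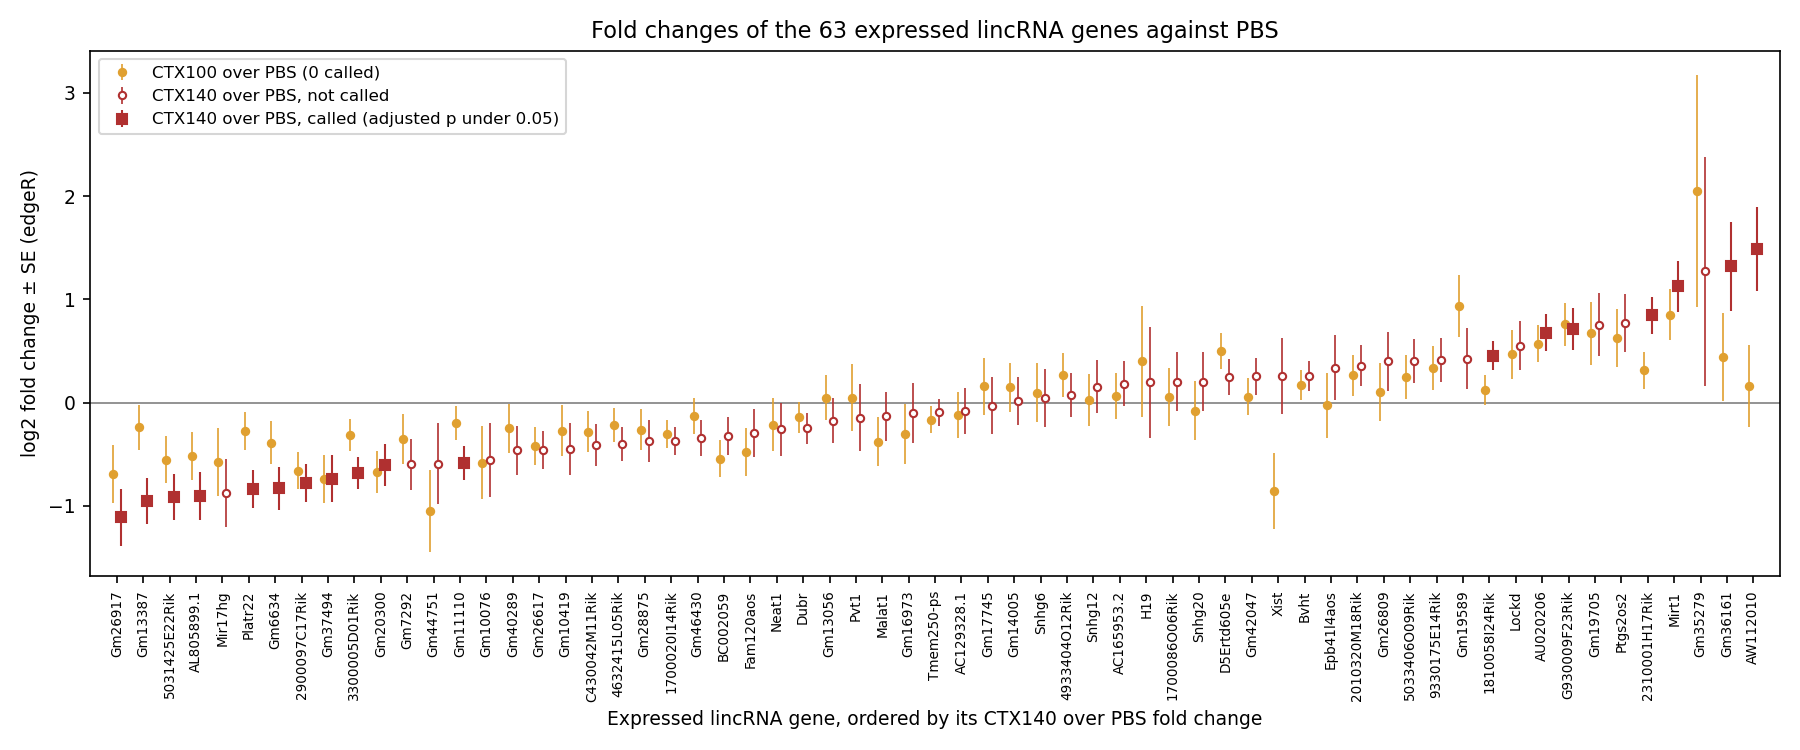
Log2 fold change against PBS (edgeR, ± SE) of the 63 expressed lincRNA genes, ordered by the CTX140 value; CTX100 is in yellow, CTX140 in red, with filled squares for the 18 called genes. CTX140 fold changes run from -1.11 for Gm26917 to 1.48 for AW112010, and no gene was called at CTX100.

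The called fold changes were modest in size. Only 4 called members, Gm26917, Mirt1, Gm36161 and AW112010, lay beyond 1 on the log2 scale, and the smallest was that of 1810058I24Rik (0.45 ± 0.14, SE). The PBS and CTX140 libraries did not overlap for 9 members, all of them called, while 14.3% of all genes tested did not overlap.

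AW112010 (ENSMUSG00000075010, minus strand, chr19:11047617-11050566) had the highest fold change. Its levels were 94.0, 73.0, 73.4 and 75.6 CPM in PBS, 102, 73.2, 69.4, 78.7 and 118 CPM in CTX100, and 267, 473, 178, 85.0 and 102 CPM in CTX140. CTX140 replicates 1, 2 and 3 were high, and the other 2 lay among the CTX100 libraries. It averaged 221 ± 158 CPM in CTX140 and 79.0 ± 10.1 CPM in PBS (SD, n = 5 and 4), a log2 fold change of 1.48 ± 0.41 (adjusted p = 0.0203). The call was lost without PBS replicate 3 or PBS replicate 4 (adjusted p of at most 0.0633), with no filter on low counts (adjusted p = 0.071) and in a fit of only the 2 groups (adjusted p = 0.0662).

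Gm36161 (ENSMUSG00000114608, plus strand, chr13:120010390-120018931), a gene with no known role, followed the same libraries. It had 12.7, 7.17, 9.22 and 11.4 CPM in PBS, 17.4, 9.68, 16.6, 12.7 and 12.7 CPM in CTX100, and 35.0, 52.3, 19.01, 9.50 and 10.8 CPM in CTX140. The log2 fold change was 1.32 ± 0.43 (adjusted p = 0.042), with the same 3 libraries high and the other 2 inside the PBS range. This call was the least stable of the 18: it held in 6 of 21 alternative settings, and leaving out any one PBS or CTX100 library, or CTX140 replicate 1 or 2, ended it. Most of the transcript is shared with other genes, as given above.

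Markers of several cell types were high in some of the same libraries. The summed level of 9 macrophage markers was 2062, 4325, 1690, 852 and 953 CPM in CTX140 replicates 1 to 5, against 1256 to 1929 CPM in PBS and 723 to 1537 CPM in CTX100, and 1 of the 9 was called higher and 1 lower. The summed level of 9 T cell markers was 744, 251, 126, 90.5 and 80.8 CPM in CTX140 replicates 1 to 5, against 61.1 to 127 CPM in PBS and 65.6 to 104 CPM in CTX100, with 4 of the 9 called higher. For 7 markers of cytotoxic cells the sums were 91.5 to 168 CPM in CTX140 and 49.3 to 65.0 CPM in PBS, with 4 of 6 tested called higher. In CTX140 replicate 3 the macrophage and T cell sums lay inside the PBS range, while the cytotoxic sums lay above PBS in all 5 CTX140 libraries. AW112010 was highest where the macrophage sum was highest, in CTX140 replicate 2, and second where the T cell sum was highest, in CTX140 replicate 1. The adipocyte, mast cell and blood endothelium lists were also highest in CTX140 replicates 1, 2 and 3, while the neutrophil and fibroblast lists were not. Neutrophil markers summed to 889, 1150, 1738, 2247 and 1945 CPM in CTX140 replicates 1 to 5, with 1 of 7 called higher. Granulocyte precursor markers, unlike these, were highest in replicates 1, 2 and 3. They summed to 150, 99.6, 90.8, 87.8 and 65.2 CPM in CTX140 replicates 1 to 5, against 23.8 to 58.9 CPM in PBS (6 of 8 called higher). Fibroblast markers summed to 3256, 7082, 3909, 4216 and 2501 CPM in CTX140 replicates 1 to 5. Adipocyte markers summed to 632, 406, 261, 128 and 117 CPM in CTX140 replicates 1 to 5, against 8.29 to 58.2 CPM in PBS (7 of 8 tested called higher). Mast cell markers summed to 109, 74.6, 53.5, 38.7 and 18.1 CPM in CTX140, against 4.89 to 16.7 CPM in PBS (5 of 6 tested called higher), and blood endothelium markers to 256, 170.5, 134, 81.6 and 63.9 CPM in CTX140, against 42.8 to 124 CPM in PBS (1 of 7 called higher). The part of any of these cells in the change of AW112010 and Gm36161 was not tested.

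**Figure D3:**
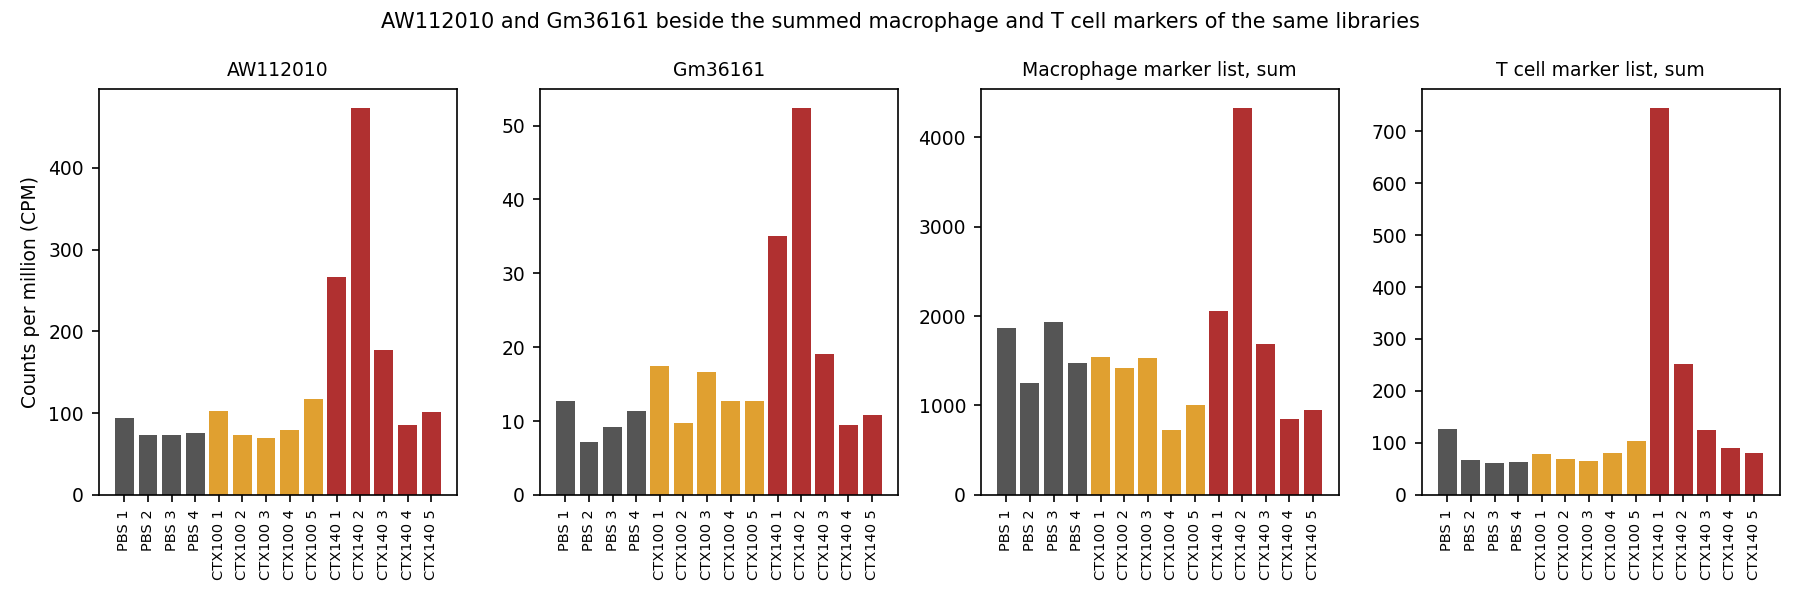
CPM of AW112010 and Gm36161 and the summed CPM of the macrophage and T cell marker lists in each library (1 bar per library, grouped as PBS, CTX100 and CTX140). CTX140 replicate 2 is highest for AW112010 (473 CPM), Gm36161 (52.3 CPM) and the macrophage sum (4325 CPM), while CTX140 replicate 1 is highest for the T cell sum (744 CPM).

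The promoters of these 2 members are shown because they moved together. They are 300-base RefSeq windows on GRCm38.p6, from 250 bases before to 50 after the annotated start, in the direction of transcription. Both strands were searched for the NF-kB pattern (GGGA, any 4 bases, CC), found in 20.7% of 32851 promoters, and the interferon response pattern (GAAA, any 2 bases, GAAA), found in 3.44%. Other patterns were also searched and are not shown. AW112010 held 2 separate matches to the NF-kB pattern and none to the interferon response pattern. Gm36161 held 1 match to the interferon response pattern, 40 bases after the annotated start. Matches are in capitals, and a match is a description of letters and not a site. Of the 36 members with a promoter in the table, 13 held the NF-kB pattern and 2 the interferon response pattern.
AW112010 promoter, chr19:11050517-11050816, minus strand: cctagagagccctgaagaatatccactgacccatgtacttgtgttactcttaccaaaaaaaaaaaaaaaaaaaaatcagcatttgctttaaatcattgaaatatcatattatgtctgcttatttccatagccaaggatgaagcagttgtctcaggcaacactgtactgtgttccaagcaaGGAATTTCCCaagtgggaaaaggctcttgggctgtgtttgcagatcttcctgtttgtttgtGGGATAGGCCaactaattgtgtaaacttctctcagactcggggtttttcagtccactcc
Gm36161 promoter, chr13:120010092-120010391, plus strand: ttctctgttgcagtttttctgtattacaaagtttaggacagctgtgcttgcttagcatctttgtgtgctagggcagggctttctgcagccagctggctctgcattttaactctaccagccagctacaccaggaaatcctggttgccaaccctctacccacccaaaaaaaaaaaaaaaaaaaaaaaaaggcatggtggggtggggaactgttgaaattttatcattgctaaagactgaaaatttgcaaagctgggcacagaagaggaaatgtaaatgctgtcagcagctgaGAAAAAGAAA

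Mirt1 (ENSMUSG00000097636, minus strand, chr19:53441212-53464796), named for its rise in heart muscle after infarction in mice, was higher without overlap. It had 8.56, 8.27, 4.82 and 7.58 CPM in PBS, 9.35, 11.9, 11.7, 13.0 and 19.9 CPM in CTX100, and 13.2, 11.2, 22.9, 14.96 and 17.5 CPM in CTX140. Every library of either dose lay above every PBS library. The log2 fold change was 1.13 ± 0.25 at CTX140 (adjusted p = 0.00536), which held in every alternative tried, and 0.85 ± 0.25 at CTX100 (adjusted p = 0.0867). Its opposite-strand partner 4833407H14Rik shares 1008 exon bases with it.

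2310001H17Rik (ENSMUSG00000097354, minus strand, chr6:129208412-129238725), a gene of unknown function in a region of lectin-like receptor genes, varied little within CTX140. In PBS it had 10.2, 10.2, 6.85 and 8.95 CPM, in CTX100 8.39, 11.2, 9.57, 11.4 and 15.9 CPM, and in CTX140 15.3, 15.6, 16.2, 17.6 and 16.7 CPM. CTX140 libraries lay above all PBS libraries, and the highest CTX100 library reached into their range. The log2 fold change was 0.84 ± 0.18 (adjusted p = 0.00449), called in every alternative. Its nearest protein-coding gene, Clec2d, the ligand of an inhibitory receptor of natural killer cells, lies 21878 bases away on the opposite strand and was also higher in CTX140 (log2 fold change 0.82 ± 0.22, adjusted p = 0.0144).

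AU020206 and G930009F23Rik, both without a known role, were about as high at either dose. AU020206 (minus strand, chr7:75769038-75782099) had 64.6, 64.5, 60.3 and 91.8 CPM in PBS, 99.3, 104, 81.8, 111 and 126 CPM in CTX100, and 160.5, 101, 116, 98.7 and 87.2 CPM in CTX140. PBS replicate 4 reached into both other groups. G930009F23Rik (minus strand, chr15:38436225-38455134) had 19.1, 21.5, 19.8 and 21.5 CPM in PBS, 32.1, 31.6, 34.5, 34.2 and 40.7 CPM in CTX100, and 21.03, 21.7, 38.6, 38.7 and 47.7 CPM in CTX140. All CTX100 libraries lay above PBS, while CTX140 replicates 1 and 2 stayed at the PBS level. Fold changes at CTX140 were 0.68 ± 0.18 for AU020206 (adjusted p = 0.0142) and 0.71 ± 0.21 for G930009F23Rik (adjusted p = 0.0228), on the log2 scale. Both calls were lost without PBS replicate 3, and that of G930009F23Rik also without PBS replicate 1 or 4 or CTX140 replicate 3 and in a fit of only the 2 groups.

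1810058I24Rik, typed as lincRNA in the deposited table, is listed in RefSeq also as Stmp1, which encodes a short mitochondrial peptide. It had 43.3, 56.3, 45.2 and 43.8 CPM in PBS, 43.8, 43.0, 46.8, 59.4 and 63.6 CPM in CTX100, and 59.1, 68.9, 60.2, 58.2 and 76.6 CPM in CTX140. The groups PBS and CTX140 did not overlap, and the log2 fold change of 0.45 ± 0.14 (adjusted p = 0.0316) was lost in 7 of 21 alternatives. Among those are no filter on low counts and leaving out PBS replicate 1, 3 or 4 or CTX140 replicate 2 or 5.

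**Figure D4:**
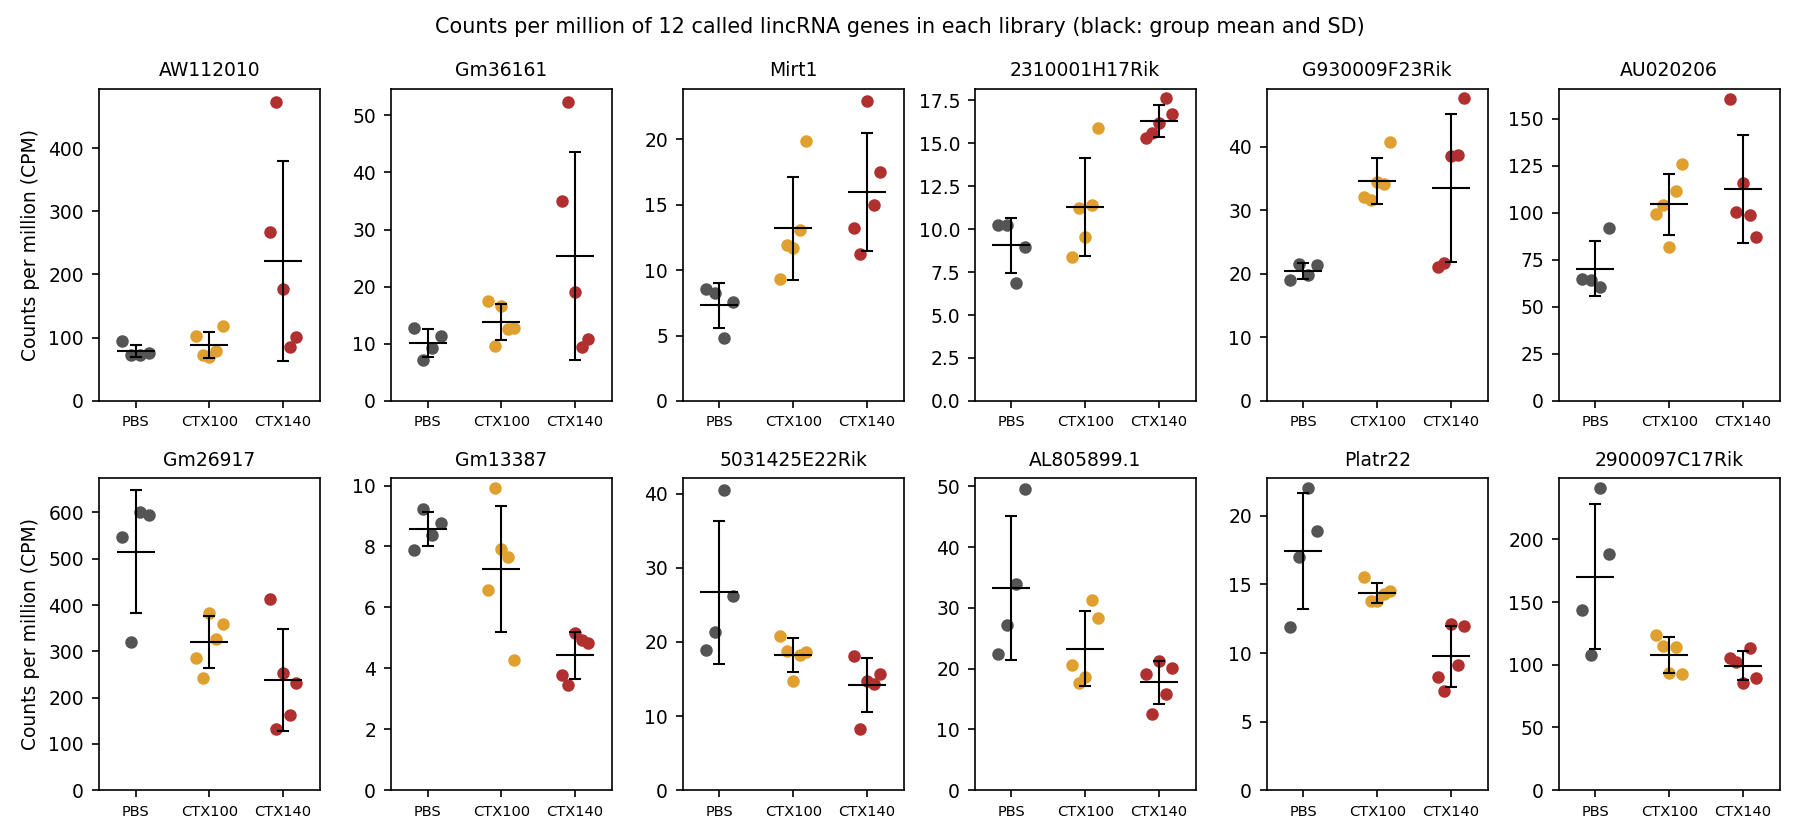
CPM of 12 called lincRNA genes in each library (points; black bars are group means ± SD), with 6 that were higher in CTX140 than in PBS in the upper row and 6 that were lower in the lower row. For AW112010 and Gm36161, 3 CTX140 libraries stand above the others, while 2310001H17Rik lies between 15.3 and 17.6 CPM in all 5.

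Among the members that were lower, Gm26917 (ENSMUSG00000097971, plus strand, chr17:39843013-39846341) was the most counted gene of the set and had the lowest fold change. It had 546, 319, 600.2 and 595 CPM in PBS, 285, 243, 382, 326 and 359 CPM in CTX100, and 414, 131, 252, 162 and 232 CPM in CTX140. CTX140 replicate 1 and PBS replicate 2 overlap between these groups, and the rest do not. It averaged 238 ± 110.0 CPM in CTX140 and 515 ± 133 CPM in PBS (SD, n = 5 and 4), a log2 fold change of -1.11 ± 0.28 (adjusted p = 0.0122) that was called in every alternative. Gm26917 lies beside CT010467.1, a gene of the type rRNA on the minus strand at chr17:39846353-39848827, whose levels were 600.1 ± 116 CPM in PBS, 488 ± 89.0 CPM in CTX100 and 512 ± 194 CPM in CTX140. Counts in such a region depend on how ribosomal RNA was removed before sequencing, a step the sources used here do not give, and the part of this in the fall of Gm26917 was not tested. Without Gm26917, the members took 0.197 ± 0.0163% of counts in CTX140, 0.181 ± 0.0125% in CTX100 and 0.196 ± 0.0318% in PBS.

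2900097C17Rik (Norad), with its 11 Pumilio elements, was lower at CTX140. It had 144, 108, 241 and 189 CPM in PBS, 124, 115, 93.2, 114 and 92.7 CPM in CTX100, and 106, 102, 85.8, 113 and 89.8 CPM in CTX140. The 10 treated libraries lay close together and PBS replicate 2 lay inside their range, while the other 3 PBS libraries were higher. The log2 fold change was -0.78 ± 0.18 at CTX140 (adjusted p = 0.00734), called in every alternative, and -0.66 ± 0.18 at CTX100 (adjusted p = 0.0727). Gm7292, which shares most of its sequence with it, had 8.97 ± 3.42 CPM in PBS and 5.92 ± 1.04 CPM in CTX140, a log2 fold change of -0.60 ± 0.24 that did not pass (adjusted p = 0.0874). Reads of these 2 RNAs may be exchanged between them in counting.

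AL805899.1, the miR-31 host, was lower without overlap between PBS and CTX140. It had 22.5, 27.1, 33.9 and 49.5 CPM in PBS, 20.6, 17.6, 18.6, 31.4 and 28.4 CPM in CTX100, and 19.2, 12.6, 21.3, 15.8 and 20.1 CPM in CTX140. The log2 fold change was -0.90 ± 0.23 (adjusted p = 0.0128), lost only without PBS replicate 4 (adjusted p = 0.0581). Mir17hg, the miR-17-92 host, had 6.63, 7.24, 8.73 and 20.5 CPM in PBS, 6.46, 5.62, 6.61, 8.31 and 9.22 CPM in CTX100, and 7.37, 2.97, 7.24, 4.78 and 7.01 CPM in CTX140. Its log2 fold change of -0.88 ± 0.33 did not pass (adjusted p = 0.0666), and PBS replicate 4 stood far above all other libraries. Host counts say nothing direct about mature microRNAs, which were not measured here.

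5031425E22Rik (ENSMUSG00000073147, minus strand, chr5:23382308-23434269) starts 172 bases from the start of Kmt2e, which encodes a chromatin reader of the trithorax group, and the pair is transcribed in opposite directions. The lincRNA gene had 18.9, 21.3, 40.5 and 26.2 CPM in PBS, 20.8, 18.8, 14.7, 18.2 and 18.7 CPM in CTX100, and 18.1, 8.20, 14.7, 14.3 and 15.6 CPM in CTX140. All CTX140 libraries lay below all PBS libraries. Its log2 fold change was -0.91 ± 0.23 (adjusted p = 0.0104), and that of Kmt2e was -1.13 ± 0.19 (adjusted p = 0.000889). The call of the lincRNA gene was lost without PBS replicate 3, at an adjusted p of 0.0509.

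Platr22 (plus strand, chr1:136696211-136726142), named for its expression in pluripotent cells, had 11.9, 17.01, 22.01 and 18.9 CPM in PBS, 15.6, 13.8, 13.8, 14.3 and 14.5 CPM in CTX100, and 8.27, 7.25, 12.1, 9.15 and 12.0 CPM in CTX140. It was the one member whose CTX140 and CTX100 libraries did not overlap, where 6.04% of all genes tested did not. The log2 fold change of -0.84 ± 0.19 against PBS (adjusted p = 0.00551) was called in every alternative. Its neighbour on the same strand, the lincRNA gene Gm19705, had a log2 fold change of 0.75 ± 0.31 that did not pass (adjusted p = 0.0878).

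Gm13387, 3300005D01Rik, Gm6634 and Gm11110, none with a known role, also had CTX140 libraries wholly below PBS. Gm13387 (minus strand, chr2:25122603-25145396) had 7.90, 9.22, 8.39 and 8.79 CPM in PBS, 6.58, 9.92, 7.91, 7.66 and 4.27 CPM in CTX100, and 3.77, 3.45, 5.15, 4.92 and 4.82 CPM in CTX140 (log2 fold change -0.95 ± 0.22 against PBS, adjusted p = 0.00698). 3300005D01Rik (plus strand, chr17:5798657-5803240) averaged 32.7 ± 4.84 CPM in CTX140 and 52.5 ± 9.94 CPM in PBS (-0.68 ± 0.15, adjusted p = 0.00579). Gm6634 averaged 6.82 ± 1.73 CPM in CTX140 and 12.1 ± 2.65 CPM in PBS (-0.83 ± 0.21, adjusted p = 0.0114). Gm11110 averaged 5.06 ± 0.656 CPM in CTX140 and 7.56 ± 0.506 CPM in PBS (-0.58 ± 0.16, adjusted p = 0.0202), and this call, unlike the other 3, was lost without CTX140 replicate 3, with no filter on low counts (adjusted p = 0.0774) and in a fit of only the 2 groups (adjusted p = 0.0665). Gm37494 (-0.74 ± 0.23, adjusted p = 0.0333) and Gm20300 (-0.61 ± 0.20, adjusted p = 0.0428) overlapped between groups. Leaving out PBS replicate 3 or PBS replicate 4 ended both of these calls, and so did CTX140 replicate 2 or 5 and a fit of only the 2 groups. That of Gm20300 also ended with no filter on low counts, with limma on log2(FPKM + 1), and without CTX100 replicate 3, 4 or 5 or CTX140 replicate 3 or 4.

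At 100 mg/kg no member was called by edgeR, while 1.6% of all genes tested were, 1.2% higher and 0.397% lower. At an unadjusted p under 0.05 there were 18 members, 28.6% of the set, beside 17.9% of all genes tested. DESeq2 called 6: G930009F23Rik, Mirt1 and Gm19589 higher, and 2900097C17Rik, Gm20300 and Gm37494 lower. That is 9.52% of the members, and over all genes DESeq2 called 821 where edgeR called 245. A fit of only these 2 groups called G930009F23Rik (adjusted p = 0.0089) and Gm44751 (adjusted p = 0.0328), and 529 genes in all. PBS and CTX100 libraries did not overlap for 5 members, beside 8.72% of all genes tested. Of these, G930009F23Rik, Mirt1 and Gm19589 were higher in CTX100, and Gm44751 and Fam120aos were lower. Gm44751 averaged 7.60 ± 2.24 CPM in CTX100 and 15.8 ± 4.22 CPM in PBS (log2 fold change -1.05 ± 0.40, adjusted p = 0.18), and Gm19589 averaged 9.94 ± 1.96 CPM in CTX100 and 5.18 ± 2.25 CPM in PBS (0.94 ± 0.30, adjusted p = 0.115). The median log2 fold change of the members was -0.12, beside -0.01 over all genes tested.

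Between the doses no member was called by edgeR, while 1.25% of all genes tested were, 0.775% higher and 0.475% lower. There were 10 members at an unadjusted p under 0.05 (15.9%), beside 22.3% of all genes tested, and DESeq2 called 5: AW112010, Xist and 2310001H17Rik higher in CTX140 than in CTX100, and Platr22 and Gm13387 lower. That is 7.94% of the members, and over all genes DESeq2 called 1264 where edgeR called 192. AW112010 averaged 221 ± 158 CPM in CTX140 and 88.3 ± 20.9 CPM in CTX100 (log2 fold change 1.32 ± 0.38, adjusted p = 0.0757 in edgeR). Xist, the RNA that coats and silences 1 X chromosome in female cells, had 39.8, 55.7, 52.97 and 115 CPM in PBS, 32.2, 36.8, 27.5, 43.2 and 42.6 CPM in CTX100, and 158, 65.3, 78.1, 40.6 and 51.4 CPM in CTX140. CTX140 replicate 1 and PBS replicate 4 were the highest, and the CTX140 over CTX100 log2 fold change was 1.11 ± 0.35 (adjusted p = 0.097 in edgeR). Both PBS and CTX140 are thus above CTX100 in mean without a call against either in edgeR.

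The best known nuclear RNAs of the set did not pass in any comparison. Neat1, the scaffold of paraspeckles (nuclear bodies that hold RNA-binding proteins), had 229, 290.2, 315 and 451 CPM in PBS, 303, 239, 227, 337 and 279.7 CPM in CTX100, and 408, 185, 354, 232 and 163 CPM in CTX140. The groups overlapped almost fully, with a log2 fold change of -0.26 ± 0.26 at CTX140 (adjusted p = 0.494). Malat1, an abundant RNA of nuclear speckles, averaged 97.6 ± 22.7 CPM in CTX140 and 107 ± 45.5 CPM in PBS (-0.13 ± 0.24, adjusted p = 0.719).

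RNAs with a link to inflammation had the highest positive median fold change of the role lists that hold members. In this list of 8 tested genes, 3 were higher in CTX140 and none lower, beside 11.1% of all genes tested higher, and the median log2 fold change was 0.79, beside 0.02 over all genes. The list was chosen with earlier results known. AW112010 and Mirt1 are given above, and Gm16685, a gene below the count minimum, was the third (1.52 ± 0.39, adjusted p = 0.0122). Ptgs2os2, listed in RefSeq as lincRNA-Cox2, a regulator of immune genes in mouse macrophages, had 10.9, 14.5, 19.8 and 15.05 CPM in PBS, 23.2, 19.5, 17.7, 24.3 and 31.5 CPM in CTX100, and 14.0, 18.7, 26.7, 23.9 and 44.8 CPM in CTX140. Of the 10 treated libraries, 6 lay above every PBS library and 4 lay inside the PBS range, and the log2 fold change at CTX140 of 0.77 ± 0.28 did not pass (adjusted p = 0.0627). Gm14005, listed in RefSeq as Morrbid, an RNA that in mouse myeloid cells restrains the death gene Bcl2l11, averaged 18.2 ± 5.53 CPM in CTX140 and 18.03 ± 4.75 CPM in PBS. Bcl2l11 itself, 15772 bases away, was lower in CTX140 (-0.60 ± 0.14, adjusted p = 0.00799).

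Among RNAs tied to DNA damage or p53, 2 of 7 tested genes were lower in CTX140 and 1 higher, beside 10.1% of all genes tested lower and 11.1% higher, and with 7 genes such counts are near that background. The lower ones were 2900097C17Rik and Tug1 (-0.62 ± 0.19, adjusted p = 0.0301), an RNA known from several tumour types, and the higher one was the imprinted Meg3 (1.77 ± 0.49, adjusted p = 0.0182). Pvt1, a neighbour of the oncogene Myc that is often gained with it, averaged 23.3 ± 10.6 CPM in CTX140 and 25.8 ± 5.74 CPM in PBS (-0.15 ± 0.32, adjusted p = 0.777), and Myc did not pass either (0.30 ± 0.22, adjusted p = 0.357).

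Of 9 tested imprinted noncoding RNAs, which are expressed from 1 parental copy, 3 were higher in CTX140 and 2 lower, beside 11.1% of all genes tested higher and 10.1% lower. Rian (1.84 ± 0.43, adjusted p = 0.00784), Meg3 and Mirg (2.09 ± 0.64, adjusted p = 0.0293), all of the Dlk1-Dio3 region, were higher, and Peg13 (-1.08 ± 0.21, adjusted p = 0.00226) and Airn (-0.83 ± 0.29, adjusted p = 0.0494) were lower. None of these is a member, being typed otherwise in the table or below the count minimum, and only H19 of the list is. H19, a fetal growth-linked RNA that holds miR-675, had 33.0, 39.2, 56.4 and 12.1 CPM in PBS, 31.1, 49.4, 64.4, 42.0 and 44.4 CPM in CTX100, and 22.1, 32.0, 25.4, 12.3 and 109 CPM in CTX140. CTX140 replicate 5 stood alone, and without it the CTX140 over PBS log2 fold change turned to -0.61; with it the value was 0.20 ± 0.54 (adjusted p = 0.824). Of 13 tested imprinted coding genes, 7 were higher, beside the same 11.1% of all genes, and 1, Igf2r, lower (-0.92 ± 0.17, adjusted p = 0.00196). The summed level of the 19 genes on that list was nevertheless lower in CTX140. It averaged 180 CPM there (158 to 207 CPM) and 248 CPM in PBS (196 to 319 CPM). Fibroblast markers moved in the same comparison, with 12 of 13 higher and sums of 2501 to 7082 CPM in CTX140 against 843 to 1398 CPM in PBS; their part was not tested.

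Hosts of snoRNAs, which guide the modification of ribosomal RNA, included 4 members and 16 tested genes. In CTX140, 2 were higher (11.1% of all genes tested were), Snhg15 (1.05 ± 0.35, adjusted p = 0.0446) and Snhg18 (1.82 ± 0.35, adjusted p = 0.00235), neither of them a member, and none was lower. Snhg6 had 28.8, 52.3, 43.5 and 33.1 CPM in PBS, 33.8, 34.1, 35.9, 44.6 and 62.4 CPM in CTX100, and 19.7, 34.2, 44.7, 41.5 and 62.6 CPM in CTX140. Snhg12 had 27.1, 53.6, 38.6 and 32.3 CPM in PBS, 29.7, 32.7, 29.1, 45.9 and 55.6 CPM in CTX100, and 27.2, 32.4, 42.8, 50.1 and 58.3 CPM in CTX140. Epb41l4aos ranged from 20.9 to 51.1 CPM in PBS, 20.7 to 52.6 CPM in CTX100 and 29.4 to 53.05 CPM in CTX140. In all 3 genes the highest library of each group was the same one, PBS replicate 2, CTX100 replicate 5 and CTX140 replicate 5, and no call was made between groups. Their CTX140 over PBS log2 fold changes were 0.04 ± 0.28, 0.15 ± 0.26 and 0.34 ± 0.31 for Snhg6, Snhg12 and Epb41l4aos, and that of Snhg20 was 0.20 ± 0.29, with adjusted p of at least 0.47 in each. Snhg6 turned negative in 5 of 21 alternatives and Snhg12 in 1.

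Of 6 tested RNAs in the list for development and pluripotency, none passed in CTX140. Platr22, called lower as given above, and Bvht were not in that list. 1700020I14Rik (Cyrano), with the miR-7 site shown above, had 101, 90.9, 126 and 137 CPM in PBS, 91.8, 79.0, 89.3, 103 and 98.2 CPM in CTX100, and 104, 96.1, 85.0, 75.6 and 79.5 CPM in CTX140. PBS replicates 3 and 4 lay above all treated libraries and the other 2 among them. Its log2 fold change was -0.37 ± 0.13 (adjusted p = 0.0597), and it was called when PBS replicate 1, PBS replicate 2 or CTX140 replicate 1 was left out. Dubr, known from muscle differentiation in mice, averaged 34.9 ± 3.61 CPM in CTX140 and 41.5 ± 7.53 CPM in PBS (-0.25 ± 0.15, adjusted p = 0.245).

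No distance to coding genes was used to choose the members, but the gene type lincRNA means intergenic, so positions partly reflect that choice. The nearest protein-coding gene lay a median of 15772 bases away, and within 10 kb for 28 of the 63. In 7 cases the pair was head to head with starts within 1000 bases: 5031425E22Rik with Kmt2e, 9330175E14Rik with Nlrc5, 2010320M18Rik with Pik3r2, 1700086O06Rik with Dele1, Gm10419 with Gm42517, Fam120aos with Fam120a and Gm11110 with Tnfsf9. Of these only the first pair was called in CTX140 on both sides. Of 13 called members with a tested neighbour, 5 had a called neighbour, in each case in the same direction, where 21.3% of all genes tested were called. Besides the Kmt2e and Clec2d pairs these were Gm37494 with the zinc finger gene Zfp619, 3982 bases away (-1.33 ± 0.45 for Zfp619, adjusted p = 0.0446), 3300005D01Rik with Snx9, an endocytosis gene (-0.85 ± 0.10, adjusted p = 6.89e-05), and Platr22 with the transcription factor gene Zfp281, also the nearest coding gene of Gm19705 (-0.39 ± 0.13, adjusted p = 0.0354).

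**Figure D5:**
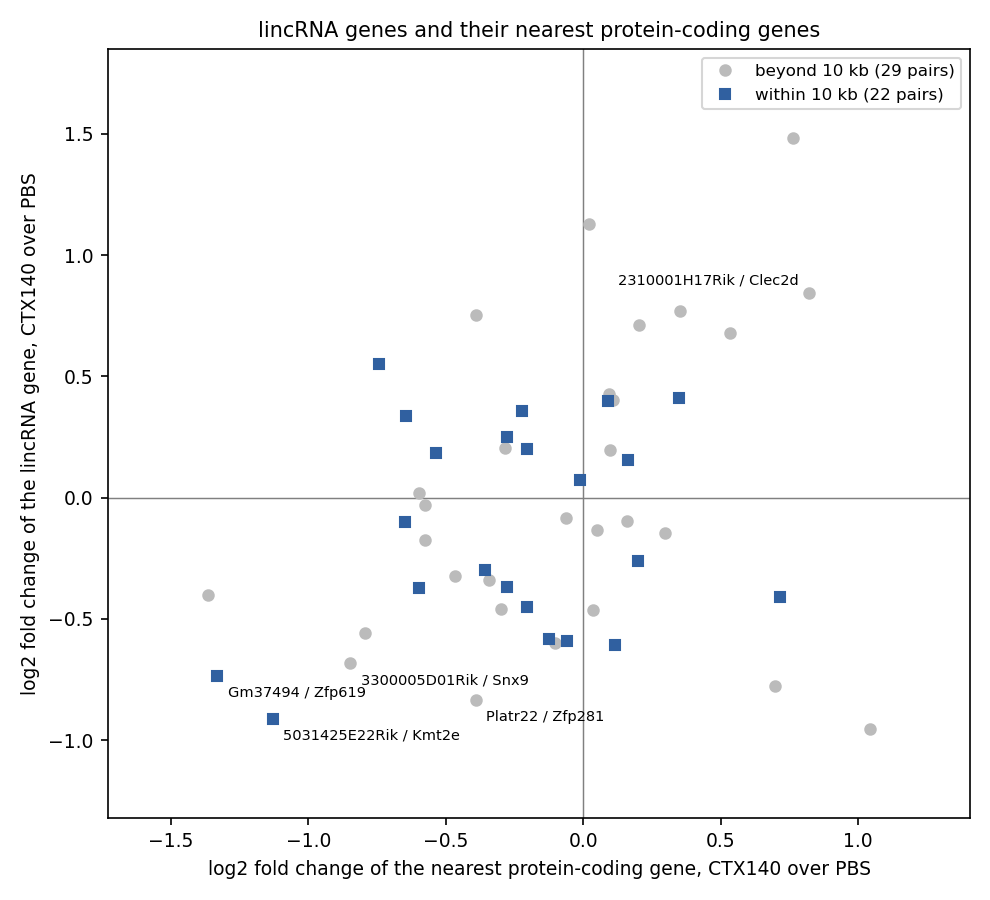
CTX140 over PBS log2 fold change of each lincRNA gene (vertical) against that of its nearest protein-coding gene (horizontal), for 51 pairs in which both were tested; squares lie within 10 kb and circles beyond, and pairs called on both sides are named. The 5 named pairs lie in the lower left or upper right, and the remaining pairs lie on all sides of the origin.

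Over all tested pairs the relation was loose. Pearson's r between the fold changes was 0.20 over 22 pairs within 10 kb and 0.34 over 29 pairs beyond, across genes of the same libraries, which are not independent replicates. In other pairs the fold changes had opposite signs. Lockd, an RNA made 3579 bases downstream of the cell cycle inhibitor gene Cdkn1b, averaged 19.9 ± 5.23 CPM in CTX140 and 13.6 ± 3.67 CPM in PBS (0.55 ± 0.24, adjusted p = 0.104), while Cdkn1b was lower (-0.74 ± 0.11, adjusted p = 0.000371). Epb41l4aos gave 0.34 ± 0.31 (adjusted p = 0.47), while its neighbour Epb41l4a, 341 bases away, was lower (-0.64 ± 0.22, adjusted p = 0.0432). AC165953.2, which shares 114 exon bases with Scaf8 on the same strand, gave 0.18 ± 0.22 (adjusted p = 0.577) while Scaf8 was lower (-0.53 ± 0.10, adjusted p = 0.00208).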

How the data were processed

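Bulk tumour RNA of 14 libraries was analysed from a table of raw counts per gene, deposited by the authors without normalization, and a table of FPKM values, which the authors computed from the same counts, the listed gene length and 1 constant per library. Per the submitters' processing notes, the build was mm10 and DESeq2 was among the tools; the sources used here do not give the aligner, counter, strand setting or rRNA removal. Groups were taken per the labels. Library totals were 14423875 to 19282726 counts, so members rest on at least 6 counts per library.

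Counts were tested on the whole table with edgeR 4.0.16 in R 4.3.3 (TMM, filterByExpr, robust quasi-likelihood, 1 mean per group, two-sided), with Benjamini-Hochberg adjustment over 15360 genes; called means adjusted p under 0.05. CPM uses TMM-scaled totals of the tested genes. Alternatives used DESeq2 1.42.0 and limma 3.58.1 on log2(FPKM + 1). The code was tested on simulated counts. Transcripts, positions and shared words of 50 bases came from GENCODE M21, microRNAs, promoters and synonyms from RefSeq (GRCm38.p6).

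Named by rule were, among called members, the 8 largest rises and 8 largest falls against PBS and the 5 and 5 between doses, the 10 members highest by FPKM and by CPM, role-list members, genes beside the count minimum, and coding neighbours within 10 kb. Other genes, such as Gm20300, Gm11110, Gm35279, Gm44751, Gm19589, Fam120aos, Lockd, Clec2d, Snx9, Zfp281, Myc, Bcl2l11 and list genes that are not members, were named after their values were seen. The members and lists were chosen with earlier results of these data known. One gene list is not reported here.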

Additional observations from a re-analysis of the deposited data

Results flagged for a closer look

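In 11 of 189 groups of libraries (63 genes in 3 groups), 1 library lay far from the others of its group, always on the high side; chance flags about 1 in 20 groups. In CTX140, H19 reached 109 CPM in replicate 5, where the other 4 libraries had 12.3 to 32.0 CPM, and Gm40289 reached 10.5 CPM in replicate 4, where the others had 5.05 to 5.25 CPM. In CTX100, Gm35279 reached 48.2 CPM in replicate 4 beside 1.14 to 8.92 CPM, and 4933404O12Rik reached 10.1 CPM in replicate 3 beside 5.84 to 6.88 CPM.

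The other 7 were in PBS. Replicate 1 held 1 of them, AW112010 at 94.0 CPM beside 73.0 to 75.6 CPM. In replicate 2 there were 3, namely 1810058I24Rik at 56.3 CPM beside 43.3 to 45.2 CPM, Gm13056 at 20.9 CPM beside 13.4 to 13.9 CPM, and 5033406O09Rik at 11.1 CPM beside 7.17 to 7.83 CPM. In replicate 4 there were also 3, namely AU020206 at 91.8 CPM beside 60.3 to 64.6 CPM, Gm26809 at 11.5 CPM beside 7.77 to 8.25 CPM, and Mir17hg at 20.5 CPM beside 6.63 to 8.73 CPM.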

How the results depend on the processing

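At CTX140 against PBS the number of called members was 18 and ran from 10 to 25 when 1 library was left out (10 without PBS replicate 3, 11 without PBS replicate 4, 25 without PBS replicate 2), and from 12 to 20 under the other alternatives; it was 27 of 100 members with a minimum of 50 counts and 13 of 39 with 200. All 18 kept their direction in 21 alternatives each, and 8 were called in all of them. At CTX100 against PBS the number was 0, 6 with DESeq2, 2 in a fit of only the 2 groups, 1 with a minimum of 50 counts, and 0 to 2 with 1 library left out. Between the doses it was 0, 5 with DESeq2 and 0 to 2 with 1 library left out. Over all genes, CTX100 against PBS gave 245 calls, 821 with DESeq2, 529 with only the 2 groups, 148 with limma and 17 to 686 with 1 library left out. Between the doses there were 192, 1264 with DESeq2, 293 with the replicate block and 0 to 1007 with 1 library left out. For CTX140 against PBS there were 3268, 1878 with only the 2 groups and 1975 to 3894 with 1 library left out. The cause of these differences was not tested.

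Directions that turned at CTX140 against PBS concerned members not called, as log2 fold changes. Under limma on log2(FPKM + 1), which understates low genes, H19 was -0.025 and Snhg6 -0.014; without the filter on low counts Gm14005 was -0.0051. With 1 library left out, Malat1 ran from -0.28 to 0.19 (turned without PBS 4), Xist from -0.16 to 0.66 (CTX140 1), H19 from -0.61 to 0.52 (PBS 4, CTX140 5), Snhg6 from -0.17 to 0.22 (PBS 1, PBS 4, CTX140 5), Pvt1 from -0.32 to 0.052 (CTX140 2), Gm14005 from -0.15 to 0.21 (PBS 1, 3 and 4, CTX140 3 and 5) and Gm13056 from -0.35 to 0.0011 (PBS 2).

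With the replicate number as a block, 14 members were called at CTX140 (lost were Gm36161, 1810058I24Rik, Gm37494 and Gm20300), 0 at CTX100 and 0 between doses, and H19 was -0.29, Snhg6 -0.18, Snhg12 -0.0092 and Gm14005 -0.14. The numbers did not pair the libraries: same-numbered pairs correlated at -0.19 to 0.43, 6 of 13 above 0.1, and 4 of 14 libraries correlated best with their own number.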
